A study of Mus musculus with 3 samples.

Results

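Wnt signaling was followed through 10 genes in healing mouse skin: the ligands *Wnt5a* and *Wnt2*, the R-spondins *Rspo1* and *Rspo3*, the secreted inhibitors *Wif1*, *Sfrp1*, *Sfrp2*, *Sfrp4* and *Dkk3*, and the transcription factor *Lef1*. They were taken as a fixed list, matched by Ensembl ID among the 32285 genes of the count files, and all 10 had at least 1 UMI (unique molecular identifier, marking 1 captured mRNA molecule) in each library. Wnt ligands are secreted proteins that bind Frizzled receptors on nearby cells. In the canonical branch this stabilizes beta-catenin, which acts on target genes with TCF and LEF factors, and R-spondins strengthen the response by keeping the receptors on the cell surface. SFRP proteins and WIF1 bind the ligands outside the cell, and in skin the balance of ligands and inhibitors in the dermis is known for its role in hair follicles and in repair.

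The libraries came from full-thickness wounds of male C57BL/6J mice aged 7 to 12 weeks, with no genetic change and no treatment beyond wounding, taken on Day 3, Day 7 and Day 14. The methods of the study describe excisional punch wounds for adult C57BL/6J mice, and incisional wounds for pups of another experiment. The series text calls the injury incisional. Cells of pooled wound tissue were dissociated without sorting and profiled with droplet-based 3' single-cell RNA sequencing. There was 1 library per day and no unwounded skin, so no test was possible, no replicate stands behind any difference, and a ratio of days compares 2 libraries.

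The libraries held 5158 to 22924 barcodes and 38133650 to 120940799 UMIs, and 37460 cells remained after filters. Between 19 and 111 barcode sequences were shared by pairs of libraries. Cells fell into 31 clusters, of which 26 were named from standard markers, and none of the 10 genes was used to form them. Levels are CPM, a gene's UMIs in a class scaled to a fixed total of UMIs over all genes, with 95% exact Poisson intervals in brackets that cover counting error only. They are compared within a gene, not between genes.

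Fibroblast-like cells numbered 404, 4380 and 6489 on Days 3, 7 and 14, in 6 clusters, with all 8 fibroblast markers detected. Their median UMIs per cell were 44306 on Day 3 against 10325 and 10295 on Days 7 and 14, and 39.6% of the Day 3 cells lay in a cluster of dividing cells. The part of this depth and of these cells in the differences from Day 3 was not tested, beyond the values within clusters given below. A cluster called mesenchymal (*Bmp4*)-like, after the cluster name in the study, held 4, 64 and 724 cells and showed 10 of 10 markers of that list, which was drawn up by the study on these libraries. *Wif1* and *Lef1* were themselves among the 10 leading genes of this cluster. Another cluster, led by *Tnn*, *Prss35* and *Col7a1* and with *Acta2* among its 10 leading genes, held 0, 1391 and 82 cells. It showed all 8 fibroblast markers but stayed unnamed because a mesenchymal marker stood among its leading genes, so it is given apart as the *Tnn*-led cluster.

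Upstream sequence was available for 5 of the 10 genes (*Wnt2*, *Rspo1*, *Wif1*, *Sfrp2* and *Lef1*, 8 start sites in RefSeq, GRCm38). Of the inhibitors, *Wif1* had 82.3% of its Day 14 UMIs in mesenchymal-like cells and *Sfrp2* had 95.1% in fibroblast-like cells. The stretches before the annotated starts of *Wif1* and *Sfrp2* are shown. Both lie on the plus strand, at chr10:121033754-121033959 and chr3:83766071-83766320, and capitals mark GC boxes (GGGCGG on either strand).
Wif1: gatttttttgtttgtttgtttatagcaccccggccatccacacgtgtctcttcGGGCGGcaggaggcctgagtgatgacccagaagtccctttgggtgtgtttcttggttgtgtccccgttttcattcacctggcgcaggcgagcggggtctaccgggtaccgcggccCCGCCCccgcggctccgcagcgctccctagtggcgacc
Sfrp2: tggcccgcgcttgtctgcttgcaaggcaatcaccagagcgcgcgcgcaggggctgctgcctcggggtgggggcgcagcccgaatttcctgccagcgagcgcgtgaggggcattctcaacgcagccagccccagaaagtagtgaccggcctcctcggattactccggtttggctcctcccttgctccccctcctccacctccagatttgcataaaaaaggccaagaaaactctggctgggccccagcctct
The *Wif1* stretch held 2 GC boxes and the *Sfrp2* stretch held 0, where 32.7% of all 32851 windows of 250 bases had at least 1. The *Wif1* stretch printed is shorter, at 206 bases, and its whole window of 250 bases also held 2. For TCF and LEF factors, 4 heptamers were searched on either strand: CTTTGAA, the variant CTTTGAT, the variant CTTTGTA and the variant CTTTGTT. Neither stretch held any of them, where 14.8% of all windows held at least 1. Among the 8 windows of these genes, 1 *Lef1* start site had such a match.

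The ligands differed in where they were found. *Wnt2* was mainly found in fibroblast-like cells, which held 99.1%, 87.2% and 95.7% of its UMIs on Days 3, 7 and 14. *Wnt5a*, a ligand known mainly for non-canonical signaling, was spread more widely: fibroblast-like cells held 91.9%, 45.8% and 71.3% of its UMIs, the *Tnn*-led cluster 42.5% on Day 7 and the mesenchymal-like cluster 19.5% on Day 14.

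*Wnt2* (chr6:17988940-18030585, minus strand) had a level of 34.5 CPM (31.9 to 37.2) in fibroblast-like cells of the Day 3 library, 73.0 (70.6 to 75.5) in those of Day 7 and 32.3 (30.9 to 33.6) in those of Day 14. The Day 7 level was the highest of the 3, and the intervals of Days 3 and 14 overlapped. The log2 ratio was 1.08 (0.96 to 1.20) for Day 7 over Day 3 and -1.18 (-1.26 to -1.10) for Day 14 over Day 7. Within clusters with at least 50 cells on both days, both differences were inside 2-fold. For Day 7 over Day 3 the log2 ratio was 0.77 (0.59 to 0.94) in the *Saa3*-, *Cxcl5*- and *Ereg*-led cluster and 0.21 (-0.04 to 0.45) in a cluster of dividing cells. For Day 14 over Day 7 it was -0.13 (-0.24 to -0.03) in the *Akr1c18*-, *Pla1a*- and *Edn1*-led cluster, where *Wnt2* was highest at 112 CPM on Day 7 and 102 on Day 14, and 0.38 (0.02 to 0.76) in the *Mgp*-, *Cilp*- and *Fbln7*-led cluster. With the *Tnn*-led cluster counted as fibroblast-like, the ratio over the class was -0.93, just inside 2-fold. The *Akr1c18*-led cluster made up 42.4% of fibroblast-like cells on Day 7 and 17.1% on Day 14.

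*Wnt5a* (chr14:28504750-28527448, plus strand) measured 24.3 CPM (22.2 to 26.6), 20.02 (18.8 to 21.3) and 28.1 (26.8 to 29.4) in fibroblast-like cells on Days 3, 7 and 14. These 3 levels lay within a factor of 1.40 between Days 7 and 14, with a log2 ratio of 0.49 (0.38 to 0.60). Within clusters it moved more, with opposite signs for Day 7 over Day 3 at 1.05 (0.83 to 1.28) in the dividing cells and -0.40 (-0.68 to -0.13) in the *Saa3*-led cluster. For Day 14 over Day 7 it was 1.15 (0.87 to 1.42) in the *Akr1c18*-led cluster, while the interval of the *Mgp*-led cluster ran from -0.33 to 0.35. The direction was not stable: with the *Tnn*-led cluster counted as fibroblast-like, the Day 14 over Day 7 value was -0.04, and without the cluster of dividing cells it was 1.02. That cluster, led by *Ube2c*, *Top2a* and *Prc1*, held 39.9% of the class's *Wnt5a* UMIs on Day 7, at 61.5 CPM, and had 42 cells on Day 14. Some groups outside the class had a higher level than the class as a whole on Day 7. The *Tnn*-led cluster had 58.1 CPM on Day 7, a log2 ratio of 1.54 (1.40 to 1.67) over fibroblast-like cells, and pericyte-like cells had 104 CPM (86.2 to 124). On Day 14 pericyte-like cells were at 32.7 (24.7 to 42.3), an interval that overlapped that of fibroblast-like cells. Mesenchymal-like cells were at 188 CPM (119 to 282) on Day 7 and 244 (224 to 266) on Day 14.

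**Figure D1:**
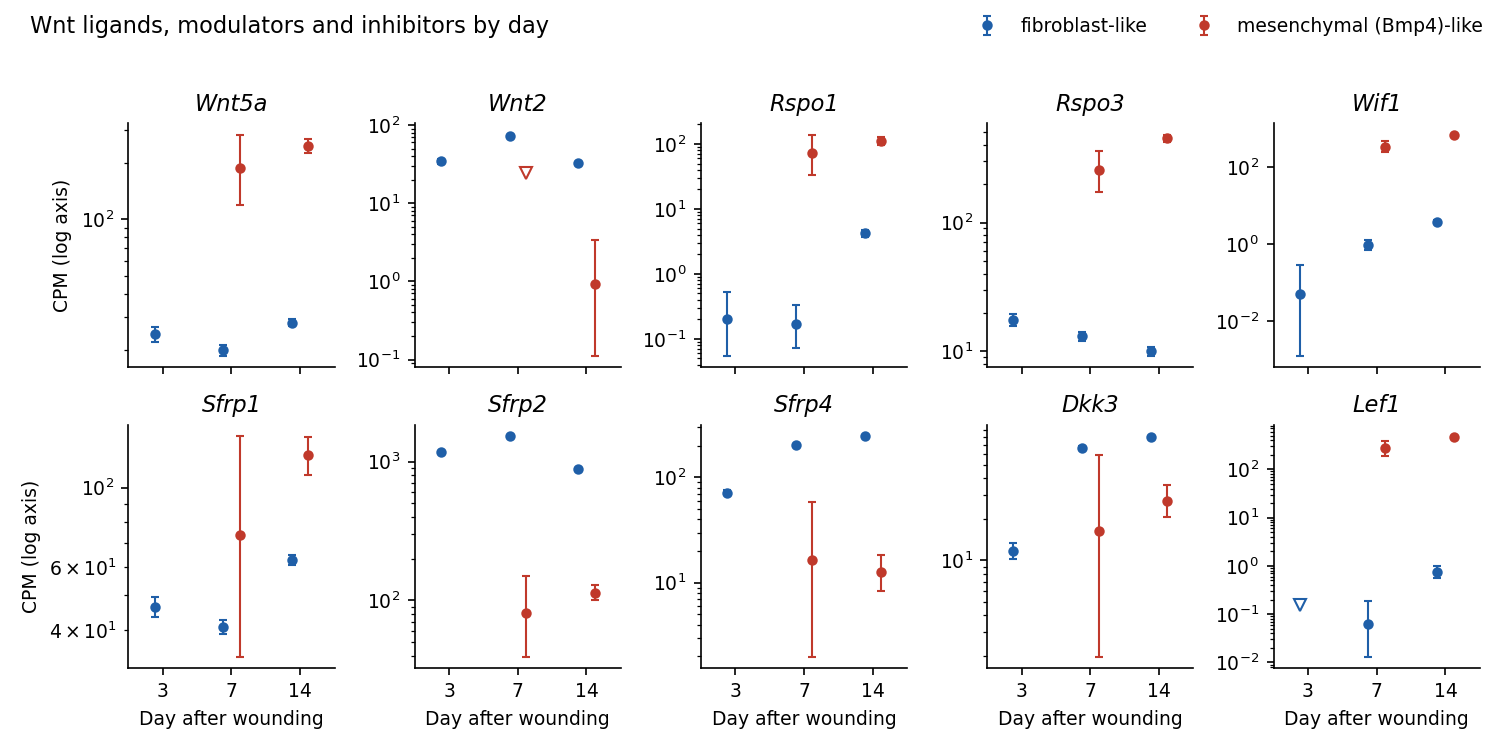
CPM of each gene (log axis, its own scale per panel) in fibroblast-like cells (blue) and mesenchymal (Bmp4)-like cells (red) by day, with 95% exact Poisson intervals; classes with under 50 cells are left out and open triangles mark the level of 3 UMIs where none was found. Wnt2 peaked at 73.0 CPM on Day 7 in fibroblast-like cells, while Wnt5a, Rspo1, Rspo3, Wif1 and Lef1 were higher in mesenchymal-like cells on both days measured, with intervals apart. Rspo1 of Day 7 rests on 9 UMIs in mesenchymal-like and 8 in fibroblast-like cells.

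The R-spondins had their highest levels in the mesenchymal-like cells. *Rspo3* (chr10:29452416-29535867, minus strand) stood at 253 CPM (172 to 360) on Day 7 and 452 (424 to 482) on Day 14 in these cells, and *Rspo1* (chr4:124986430-125009099, plus strand) at 73.6 (33.6 to 140) and 111 (97.4 to 126). Although the mesenchymal-like cluster was 5.36% of cells on Day 14, it held 55.9% of *Rspo3* UMIs and 43.8% of *Rspo1* UMIs, where fibroblast-like cells held 39.4% and 52.9%.

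In fibroblast-like cells *Rspo3* was lower at each later day, at 17.4 CPM (15.6 to 19.4), 13.1 (12.1 to 14.2) and 10.0 (9.28 to 10.8). No step reached 2-fold. Between Days 3 and 7 the difference within clusters was larger than in the class as a whole, with log2 ratios of -1.43 (-1.75 to -1.12) in the *Saa3*-led cluster and -1.15 (-1.70 to -0.63) in the dividing cells, against -0.41 (-0.61 to -0.22) over the class. The *Akr1c18*-led cluster, with 21.9 CPM of *Rspo3* on Day 7, had 7 cells on Day 3 and 1857 on Day 7.

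*Rspo1* in fibroblast-like cells rested on 4, 8 and 289 UMIs, or 0.203, 0.169 and 4.22 CPM. Of the Day 14 UMIs, 91.0% came from 1 cluster, led by *Igfbp2*, *Gal* and *Wfdc12*, which held 30 cells on Day 7 and 1458 on Day 14. There *Rspo1* measured 19.4 CPM, where the other fibroblast-like clusters with at least 50 cells had at most 0.497. The Day 14 over Day 7 log2 ratio over the class was 4.64 (3.64 to 5.86), and when this cluster was left out it was 2.15, at a mean level too low for the comparison.

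Among the inhibitors, *Wif1* and the SFRP genes were found in different cells. *Wif1* (chr10:121033960-121100650, plus strand) measured 343 CPM (247 to 464) on Day 7 and 666 (632 to 701) on Day 14 in mesenchymal-like cells, which held 82.3% of its UMIs on Day 14. In fibroblast-like cells it was at 0.0509 CPM (1 UMI), 0.953 and 3.74 CPM on Days 3, 7 and 14. Again the *Igfbp2*-led cluster carried most of the Day 14 value, with 15.5 CPM and 82.4% of the class's *Wif1* UMIs. On Day 7 it had 30 cells, which held 25 of the 45 UMIs at 127 CPM, so that its own level was the lower one on Day 14. For Day 14 over Day 7 the class gave a log2 ratio of 1.97 (1.51 to 2.46), and 0.95 without that cluster. In the *Mgp*-led cluster the same ratio was -2.65 (-3.62 to -1.63), from 15 and 26 UMIs. The 45 UMIs of Day 7 lay in 0.205% of fibroblast-like cells, and the intervals take each UMI as independent. The Day 7 values within clusters therefore rest on few cells.

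*Sfrp2* (chr3:83766321-83774316, plus strand) was detected in 96.8%, 94.5% and 65.0% of fibroblast-like cells on Days 3, 7 and 14. After each cell was thinned to 2000 UMIs, which left out 11, 41 and 105 cells, the shares were 73.5%, 82.6% and 49.0%. In macrophage-like cells, given for comparison, the thinned shares were 1.44%, 7.89% and 4.34%. The level in fibroblast-like cells was 1165 CPM (1150 to 1180), 1527 (1516 to 1538) and 891 (884 to 898), a log2 ratio of -0.78 (-0.79 to -0.76) for Day 14 over Day 7.

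Within clusters the *Sfrp2* levels of Days 7 and 14 differed in both directions. The log2 ratio was 0.05 (-0.00 to 0.10) in the *Mgp*-led cluster and 0.18 (0.15 to 0.21) in the *Akr1c18*-led cluster, but -0.78 (-0.94 to -0.63) in the *Tnn*-led cluster, and the dividing cells went from 1126 to 339 CPM with 42 cells on Day 14. The shares of the clusters also differed, and their part in the class value was not tested. The *Akr1c18*-led and *Saa3*-led clusters, at 1664 and 1675 CPM on Day 7, made up 42.4% and 37.1% of the class on Day 7 and 17.1% and 0.632% on Day 14. The *Mgp*-led cluster, at 948 CPM, went from 9.52% to 55.0%, and the *Igfbp2*-led cluster, at 72.3 CPM, from 0.685% to 22.5%. Across the fibroblast-like clusters of Day 14 with at least 50 cells and the *Tnn*-led cluster, *Sfrp2* spanned 26.0-fold, from 72.3 to 1884 CPM.

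*Sfrp4* (chr13:19623104-19632994, plus strand) was higher on each later day in fibroblast-like cells, at 71.9 CPM (68.2 to 75.8), 204 (200 to 208) and 245 (242 to 249). The step from Day 3 to Day 7 was the larger, with a log2 ratio of 1.51 (1.43 to 1.59), and it was 1.18 and 0.78 in the *Saa3*-led and dividing clusters and 0.99 with a class given per cell. From Day 7 to Day 14 the class ratio was 0.27, but in the *Mgp*-led cluster, with 75.5% of the class's *Sfrp4* UMIs on Day 14, it was -0.52 (-0.59 to -0.44). On Day 14 *Sfrp4* ranged from 15.7 CPM in the *Igfbp2*-led cluster to 450 in the cluster led by *Col18a1*, *Kera* and *Cldn1*.

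*Dkk3* (chr7:112116017-112159057, minus strand), a divergent member of the Dickkopf family, showed the greatest difference between Days 3 and 7 among the 7 genes with enough UMIs to compare. It measured 11.7 CPM (10.2 to 13.3), 66.5 (64.2 to 68.9) and 79.3 (77.2 to 81.5) on Days 3, 7 and 14. The Day 3 value was below every later one, and Day 7 stood above Day 3 by a log2 ratio of 2.51 (2.31 to 2.71). Both clusters with at least 50 cells on both days showed it, at 2.70 (2.40 to 3.00) in the *Saa3*-led cluster and 1.97 (1.67 to 2.29) in the dividing cells. From Day 7 to Day 14, where the class ratio was 0.25, it was lower in the large clusters, at -0.57 (-0.73 to -0.41) in the *Akr1c18*-led and -0.20 (-0.37 to -0.04) in the *Mgp*-led cluster. *Dkk3* was highest on Day 14 in the *Igfbp2*-led cluster (116 CPM) and the *Tnn*-led cluster (113 CPM).

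*Sfrp1* (chr8:23411502-23449632, plus strand) was found in fibroblast-like, mesenchymal-like and epithelial-like cells. In fibroblast-like cells it measured 46.3 CPM (43.4 to 49.4), 40.8 (39.0 to 42.7) and 62.7 (60.9 to 64.6) on Days 3, 7 and 14. The class value of Day 14 was higher than that of Day 7 by a log2 ratio of 0.62 (0.54 to 0.70), but within the *Mgp*-led cluster, where it was highest, the ratio was -0.95 (-1.08 to -0.82). On Day 14 *Sfrp1* stood at 123 CPM (109 to 139) in mesenchymal-like cells and 88.3 (80.5 to 96.6) in epithelial-like cells.

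*Lef1* (chr3:131110471-131224356, plus strand), which binds DNA with beta-catenin, was at 0 UMIs in fibroblast-like cells on Day 3, where 3 UMIs would be 0.153 CPM. It was at 0.0636 CPM (3 UMIs) on Day 7 and 0.759 (52 UMIs) on Day 14. In mesenchymal-like cells it reached 270 CPM (186 to 379) on Day 7 and 465 (436 to 495) on Day 14, with 38.8% and 87.0% of all *Lef1* UMIs of those libraries. T cell-like cells had the next highest level, with overlapping intervals at 53.0 CPM (37.7 to 72.5) for Day 7 and 45.1 (30.6 to 64.0) for Day 14. They held 45.9% of *Lef1* UMIs on Day 7 and 2.70% on Day 14.

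**Figure D2:**
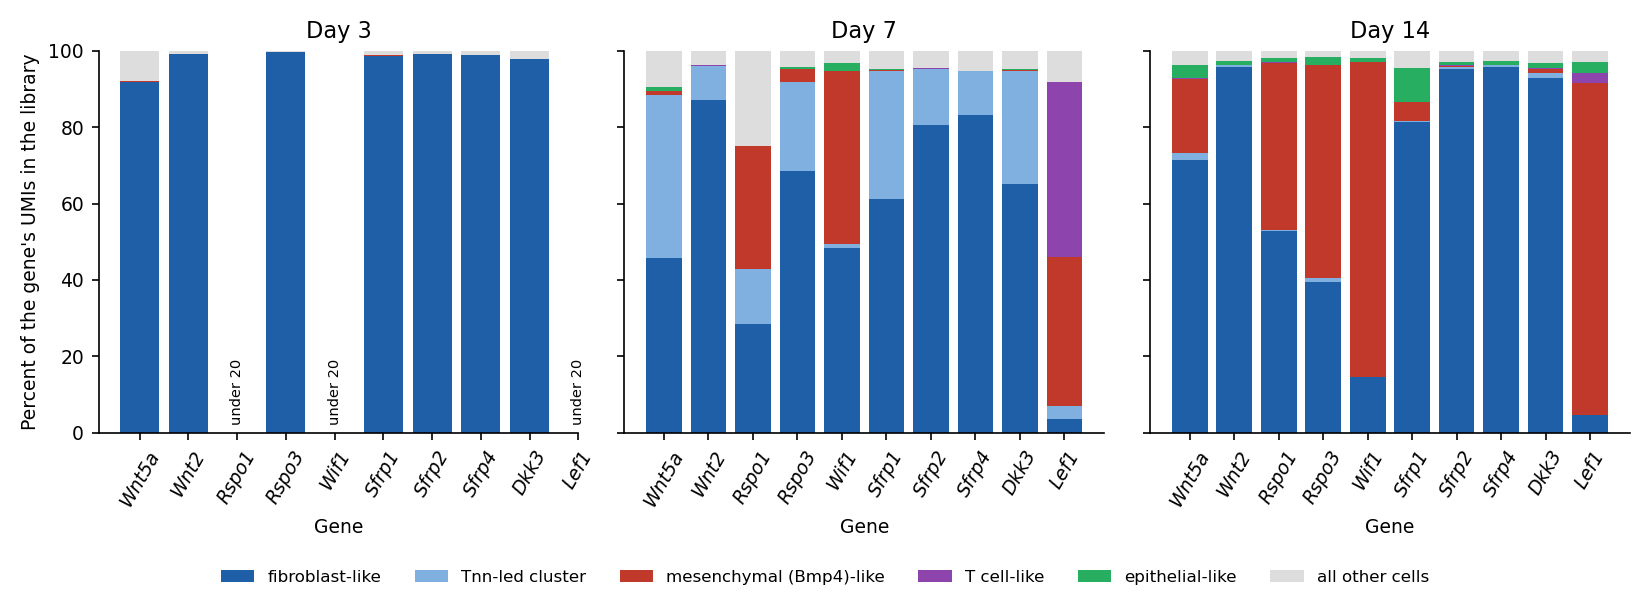
Percent of each gene's UMIs in a library (y axis, linear) that came from each class or cluster, for Days 3, 7 and 14; genes with under 20 UMIs in a library are marked. Fibroblast-like cells held most UMIs of Wnt2, Sfrp2, Sfrp4 and Dkk3 on every day, and mesenchymal-like cells held 82.3% of Wif1 and 87.0% of Lef1 on Day 14.

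In fibroblast-like cells, 3 of the 7 genes with enough UMIs (at least 20 in all and a mean of at least 1 CPM) were at least 2-fold higher on Day 7 than on Day 3, where 7.79% of 12141 genes tested were. They were *Wnt2*, *Sfrp4* and *Dkk3*, but *Wnt2* fell inside 2-fold in several other ways of forming the class, down to 0.82 with the *Tnn*-led and low-UMI clusters added. None was at least 2-fold lower, where 10.2% of all genes were. For Day 14 over Day 7, 2 of 9 were at least 2-fold higher (*Rspo1* and *Wif1*), where 4.11% of 12194 genes were, and 1 was at least 2-fold lower (*Wnt2*), where 7.39% were. *Rspo1* and *Wif1*, below 1 CPM on Day 7, passed the filter on mean level only through Day 14, so their count is no support for a difference. Without the *Igfbp2*-led cluster, all 3 of these fell inside 2-fold or below the level needed. The median log2 ratio of all tested genes was -0.18 for Day 7 over Day 3 and -0.16 for Day 14 over Day 7, against 0.39 and 0.27 for the listed genes.

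Mesenchymal-like and fibroblast-like cells of the same library were then compared. On Day 14, 5 of 10 genes were at least 2-fold higher in mesenchymal-like cells (33.1% of 12805 genes tested) and 4 were at least 2-fold lower (12.5% of genes). *Lef1*, at 0.759 CPM in fibroblast-like cells, and *Wnt2*, at 0.929 CPM in mesenchymal-like cells, passed the filter on mean level only through the other class. These counts are therefore descriptions. The higher genes were *Lef1*, with a log2 ratio of 9.26 (8.86 to 9.69), *Wif1* at 7.48 (7.28 to 7.67), *Rspo3* at 5.50 (5.35 to 5.64), *Rspo1* at 4.72 (4.46 to 4.97) and *Wnt5a* at 3.12 (2.98 to 3.26). The lower genes were *Wnt2* at -5.12 (-8.16 to -3.26, from 2 UMIs), *Sfrp4* at -4.29 (-4.89 to -3.75), *Sfrp2* at -2.97 (-3.16 to -2.79) and *Dkk3* at -1.53 (-1.93 to -1.16). *Sfrp1*, at 0.97 (0.79 to 1.15), lay just inside 2-fold. The median of all tested genes was 0.51, and the mesenchymal-like cells had fewer UMIs, with a median of 2354 per cell, whose part in the result was not tested. Fibroblast markers summed to 9117 CPM in these cells against 142464 in fibroblast-like cells, and the markers of the mesenchymal-like list to 15389 against 249.6. Low levels of 3 of the lower genes were not particular to mesenchymal-like cells. The *Igfbp2*-led cluster of Day 14 had *Wnt2* at 2.13 CPM, *Sfrp4* at 15.7 and *Sfrp2* at 72.3. Mesenchymal-like cells had 0.929, 12.5 and 114 CPM. For *Dkk3* the 2 differed, at 116 CPM in that cluster and 27.4 in mesenchymal-like cells.

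From Day 7 to Day 14, none of 9 genes was at least 2-fold higher within the mesenchymal-like cells (21.4% of 8532 genes were) and none at least 2-fold lower (8.43%). The log2 ratio was 0.96 (0.51 to 1.43) for *Wif1*, 0.84 (0.32 to 1.40) for *Rspo3* and 0.79 (0.29 to 1.33) for *Lef1*. These rest on 42, 31 and 33 UMIs in 64 cells on Day 7. In the libraries as a whole, *Wif1* and *Lef1* went from 0.927 and 0.848 CPM on Day 7 to 17.9 and 11.8 on Day 14. The mesenchymal-like share of cells was 0.327% (0.252% to 0.417%) on Day 7 and 5.36% (4.99% to 5.75%) on Day 14. When each cell was given a class by its own markers, without clusters, the 3 ratios were 3.12, 3.42 and 3.35.

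**Figure D3:**
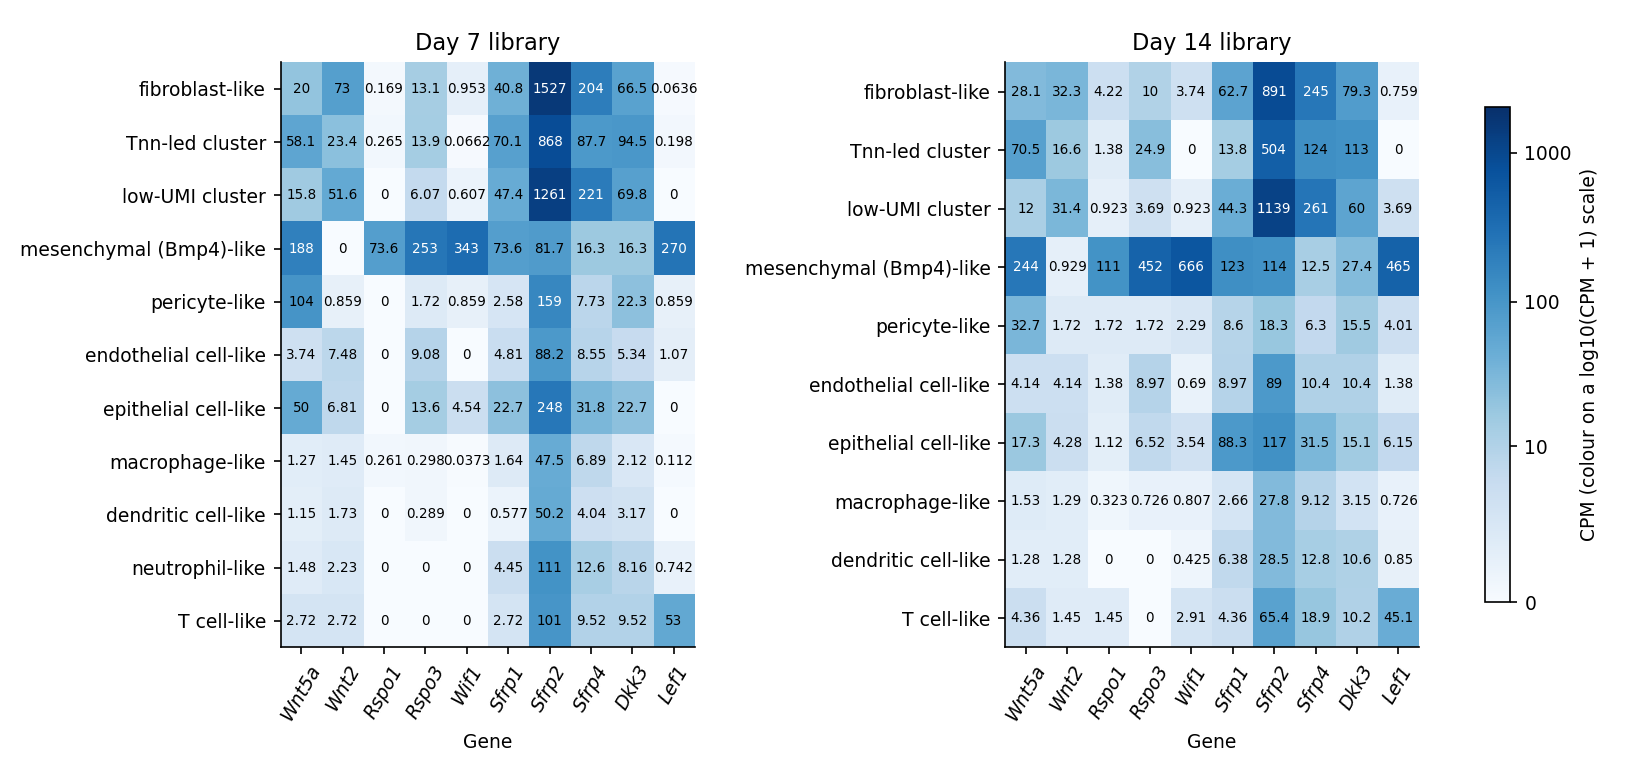
CPM of the 10 genes (columns) in the named classes with at least 50 cells and the Tnn-led and low-UMI clusters (rows) on Day 7 and Day 14, with the value printed and colour on a log10(CPM + 1) scale. Rspo1, Rspo3, Wif1 and Lef1 are highest in mesenchymal (Bmp4)-like cells on both days, and Wnt2 in fibroblast-like cells.

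Single cells of the mesenchymal-like cluster often carried several of these transcripts. After thinning to 2000 UMIs, which kept 493 of 724 cells of Day 14, a UMI was found for *Lef1* in 54.2% (49.6% to 58.6%), *Rspo3* in 46.0% (41.6% to 50.6%), *Wif1* in 42.0% (37.6% to 46.5%), *Wnt5a* in 29.0% (25.04% to 33.2%) and *Rspo1* in 19.5% (16.1% to 23.2%). Unthinned shares were 61.5%, 47.4%, 43.5%, 30.8% and 22.2%. In macrophage-like cells the thinned shares were 0.118% for *Lef1*, 0.236% for *Rspo3*, 0.158% for *Wif1*, 0.394% for *Wnt5a* and 0.0788% for *Rspo1*.

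*Wnt5a* was more often found in cells with *Rspo3* than in those without. It was present in 35.7% (29.5% to 42.3%) of mesenchymal-like cells with an *Rspo3* UMI and in 23.3% of the others. *Lef1* was present in 60.4% (53.7% to 66.8%) of cells with *Rspo3* and 48.9% of those without. *Wif1* did not follow this order, being present in 40.5% (34.1% to 47.2%) of cells with *Rspo3* and 43.2% of those without. In fibroblast-like cells of Day 14, *Sfrp2* was present in 78.5% (73.8% to 82.6%) of cells with a *Wnt2* UMI and 47.3% of those without, and in 5.33% (1.47% to 13.1%) of cells with an *Rspo1* UMI against 49.5% of those without. These shares mix clusters. The *Akr1c18*-led cluster, with *Sfrp2* at 1884 CPM, held 49.5% of the class's *Wnt2* UMIs. The *Igfbp2*-led cluster, with *Sfrp2* at 72.3 CPM, held 91.0% of its *Rspo1* UMIs. The part of the clusters in these shares was not tested.

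**Figure D4:**
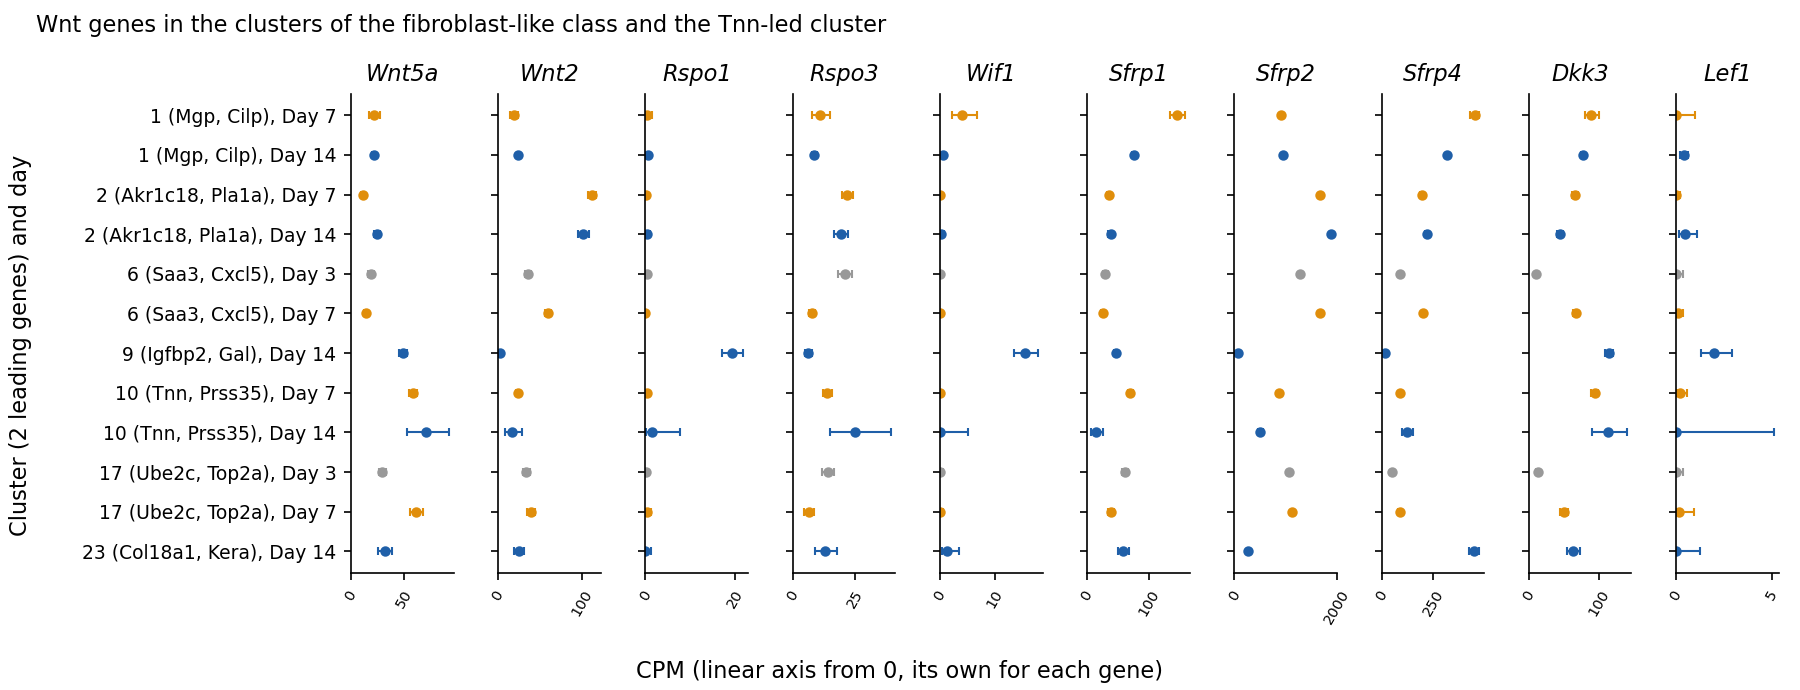
CPM (x axes, linear, its own scale per gene) in each fibroblast-like cluster and the Tnn-led cluster with at least 50 cells, on Day 3 (grey), Day 7 (orange) and Day 14 (blue), with 95% exact Poisson intervals. The Igfbp2-led cluster of Day 14 has the highest Rspo1 (19.4 CPM) and Dkk3 (116 CPM) and the lowest Wnt2 and Sfrp2.

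A further cluster of 481 cells on Day 7 and 497 on Day 14, unnamed for its low UMI counts, also showed all 8 fibroblast markers, and its *Sfrp2* stood at 1261 and 1139 CPM. In macrophage-like cells *Sfrp2*, *Sfrp4* and *Dkk3* stood about as low as the fibroblast markers, as percents of the fibroblast-like level. There the 8 fibroblast markers stood at a median of 0.685%, 3.36% and 3.91% of their fibroblast-like level on Days 3, 7 and 14. *Sfrp2* stood at 0.621%, 3.11% and 3.12%, *Sfrp4* at 1.13%, 3.38% and 3.71%, and *Dkk3* at 0.695%, 3.19% and 3.97%. All but *Sfrp4* on Day 3 lay within the range of the markers, and the part of carried-over transcripts in these levels was not tested. Other values lay above that range. In macrophage-like cells *Wnt5a* stood at 6.33% and 5.46% on Days 7 and 14, where the markers reached 5.48% and 4.64%. There *Rspo1* and *Rspo3*, from 4 and 9 UMIs, stood at 7.65% and 7.25% on Day 14. On Day 14 *Wif1* in macrophage-like cells, at 0.807 CPM, stood at 21.6% of its low fibroblast-like level. On that day *Rspo1*, *Rspo3*, *Wif1* and *Lef1* were highest in mesenchymal-like cells, at 111, 452, 666 and 465 CPM. Percents of the fibroblast-like level are therefore not percents of the highest level for these genes. *Dkk3* and *Sfrp1* in dendritic cell-like cells stood at 13.4% and 10.2% on that day, where the markers reached 6.69%. Of the genes that were low in fibroblast-like cells, *Lef1* in macrophage-like cells stood at 95.7% of that level on Day 14, from 9 UMIs. *Rspo3* in endothelial cell-like cells was at 9.08 and 8.97 CPM, or 69.4% and 89.6% of the fibroblast-like level, on Days 7 and 14. The summed level of the fibroblast markers was 18938 and 14228 CPM in pericyte-like cells and 20263 and 18520 in epithelial-like cells on Days 7 and 14, against 142464 in fibroblast-like cells on Day 14. In the epithelial-like cells of Day 14, *Sfrp1* was above its fibroblast-like level, while *Sfrp2* at 117 CPM and *Sfrp4* at 31.5 were below theirs. *Sfrp2* and *Sfrp4* stood there at 13.1% and 12.8% of the fibroblast-like level, within the 12.3% to 15.4% of the fibroblast markers. The part of carried-over transcripts was not tested.

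The *Tnn*-led cluster of Day 7 was compared with the fibroblast-like cells of that library. Of 7 genes with enough UMIs, *Wnt5a* was at least 2-fold higher (3.86% of 12281 genes were), and *Wnt2* and *Sfrp4* were at least 2-fold lower (5.42%), with log2 ratios of -1.64 (-1.80 to -1.48) and -1.22 (-1.30 to -1.14). *Sfrp1* and *Dkk3*, at 70.1 and 94.5 CPM, were higher by 0.78 (0.67 to 0.89) and 0.51 (0.42 to 0.60). *Sfrp2* was at 868 CPM, and *Rspo3* at 13.9 CPM differed by 0.09 (-0.15 to 0.31).

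Of 62 other genes of the pathway, 37 had enough UMIs in fibroblast-like cells for Day 14 over Day 7. Of these 6 (16.2%) were at least 2-fold higher (*Wnt6*, *Apcdd1*, *Lgr5*, *Tcf7*, *Nkd1* and *Nkd2*) and 2 (5.41%) lower (*Wnt16* and *Draxin*), beside the 4.11% and 7.39% of all genes given above. At a mean of at least 10 CPM, 2 were higher and none was lower, so these counts rest mostly on genes of low level and are descriptions. Without the *Igfbp2*-led cluster, 2 were higher and 3 lower. *Lgr5*, a receptor for R-spondins, went from 3.16 to 26.8 CPM, a log2 ratio of 3.09 (2.84 to 3.34). Its Day 14 UMIs came mainly from the *Igfbp2*-led cluster (54.0%, at 73.0 CPM), where *Rspo1* was also found, and from the *Mgp*-led cluster (43.9%, at 20.04 CPM). On Day 7 the *Igfbp2*-led cluster was already at 91.1 CPM (18 UMIs in 30 cells) and the *Mgp*-led cluster at 10.3 CPM. These clusters went from 0.685% to 22.5% and from 9.52% to 55.0% of fibroblast-like cells, and the part of these shares in the class value was not tested. For Day 7 over Day 3, 2 of 35 were higher (*Wnt10b* and *Fzd6*) and 2 lower (*Wnt11* and *Dkk2*), each 5.71%, below the 7.79% and 10.2% of all genes tested. The inhibitor *Dkk2* went from 36.9 to 15.8 CPM.

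In mesenchymal-like cells of Day 14, 28 of 45 pathway genes were at least 2-fold higher than in fibroblast-like cells (62.2%, where 33.1% of all genes tested were) and 5 were lower (11.1%, where 12.5% were). Genes nearly absent from fibroblast-like cells, such as *Notum* and *Wnt10a*, passed the filter on mean level only through the class where they were high, so these counts are descriptions. The higher secreted inhibitors were 5 (*Frzb*, *Dkk2*, *Notum*, *Sostdc1* and *Draxin*), with *Dkk2* at 663 CPM against 12.8 and *Notum*, an enzyme that inactivates Wnt ligands, at 131 against 0.321. Of 8 other ligands, 5 were higher, among them *Wnt10a* at 74.8 CPM against 0.292 and *Wnt6* at 67.8 against 2.23, and both other R-spondins were higher. The feedback target genes *Axin2*, *Nkd1* and *Nkd2* were also higher, with log2 ratios of 3.00 (2.63 to 3.35) for *Axin2*, 3.25 (3.00 to 3.51) for *Nkd1* and 4.49 (4.29 to 4.69) for *Nkd2*. Of 18 receptors, 7 were higher (38.9%, near the share of all genes) and 4 lower, and *Lgr5* was lower at 1.39 CPM (3 UMIs) against 26.8, while its relatives *Lgr4* and *Lgr6* were higher at 67.8 and 39.5. On Day 7 *Lgr5* rested on 1 UMI in mesenchymal-like cells, or 8.17 CPM against 3.16, with an interval of the log2 ratio from -3.94 to 3.87.

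**Figure D5:**
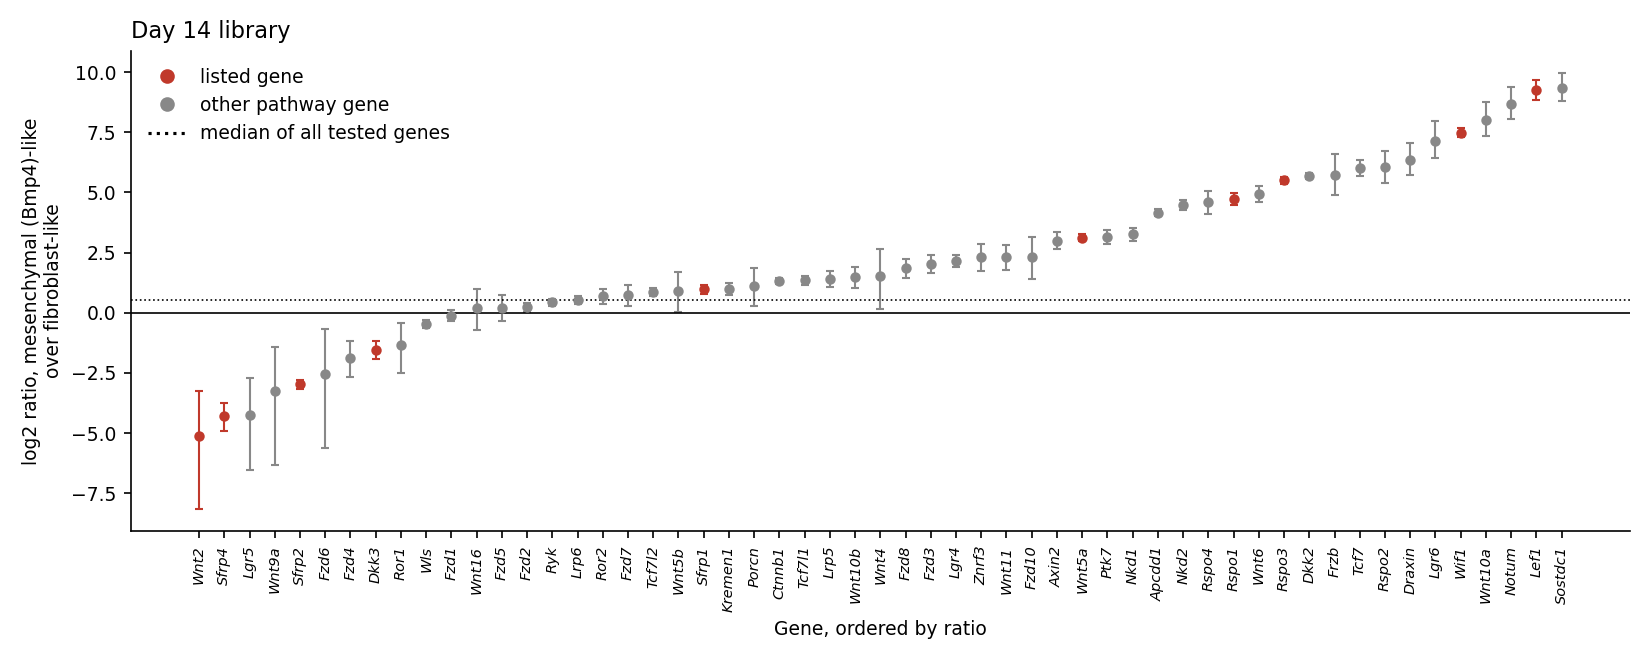
Log2 ratio of CPM in mesenchymal (Bmp4)-like over fibroblast-like cells of Day 14 (y axis) for the listed genes (red) and the other pathway genes (grey) with enough UMIs and at least 1 UMI in both classes, with 95% exact conditional binomial intervals. The dotted line is the median of all tested genes, 0.51; Lef1 and Wif1 lie near the upper end at 9.26 and 7.48 and Wnt2 at the lower end at -5.12.

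Over 58 sums of UMIs by cluster and day with at least 50 cells each, the genes most like each one in log2(CPM + 1) were sought among 11753 genes with at least 500 UMIs. These correlations are descriptions, as the sums share libraries and depth. *Wnt2* and *Sfrp2* were near each other (Pearson's r = 0.918), after *AW551984* for *Wnt2* (0.936), and *Lgi2* followed (0.905). Nearest to *Sfrp2* were *Cpxm1*, *Loxl1* and *Fbn2* (0.953, 0.950 and 0.925), and to *Sfrp4* the matrix genes *Col14a1*, *Mfap5* and *Col3a1* (0.926, 0.926 and 0.923). *Dkk3* was nearest to *Matn2*, *Islr* and *Igsf10* (0.939, 0.929 and 0.926), *Sfrp1* to *Efs*, *Boc* and *3110039I08Rik* (0.898, 0.892 and 0.891) and *Wnt5a* to *Nfatc4*, *Hoxc6* and *En1* (0.929, 0.918 and 0.913).

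The genes of the mesenchymal-like cells had other neighbours. *Wif1* was nearest to *Gldn*, *Pappa2* and *Lamc3* (0.904, 0.884 and 0.883), and *Lef1* to *Wif1*, *Slc26a7* and *Lamc3* (0.767, 0.758 and 0.755). *Rspo3* was nearest to *Lvrn*, *Sobp* and *Cacna1g* (0.864, 0.857 and 0.846) and *Rspo1* to *a*, *Coch* and *Ptger3* (0.821, 0.815 and 0.807). *Pappa2* and *Slc26a7* are among the markers that named the cluster. *Wnt2* and *Lef1* had the lowest value of any pair of listed genes, at -0.178.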

How the data were processed

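Wound cells of 3 libraries (1 per day, groups taken from the labels) were analysed. The authors deposited raw UMI counts per gene and barcode, made with Cell Ranger 6.0.0 on mm10 per the submitters' processing notes and not normalised. Positions are from GENCODE M21 (mm10). Cells with at least 200 genes, 500 UMIs and at most 10% mitochondrial UMIs were kept (40492), and 3032 likely doublets were removed within libraries. The libraries were clustered together without alignment (2000 variable genes, 30 components, 15 neighbours, Leiden resolution 1, leidenalg 0.10.2), never using the 10 genes, the other pathway genes, or mitochondrial and ribosomal protein genes. Clusters were named from at least 3 markers and stayed unnamed where leading genes or a second class went against the name or UMIs were low. A low-UMI cluster of 99, 481 and 497 cells, with all fibroblast markers, was therefore left out of the fibroblast-like class.

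UMIs were summed per class and day, since cells are not replicates. Levels have exact Poisson, shares Clopper-Pearson and ratios exact conditional binomial intervals, at the 95% level, which cover counting error and nothing else. No test was run, as each day had a single library. Only the ratio intervals were run on simulated data, with Poisson counts as they assume and no spread between cells, mice or libraries. Genes, lists and comparisons were chosen with earlier results of these data known. All 10 genes are named, with pathway genes past 2-fold and at 20 CPM or more, called genes otherwise only listed, and the 3 nearest genes of each listed gene with at least 200 UMIs. Sums and intervals used numpy 2.4.6 and scipy 1.17.1. The levels of 1 unnamed cluster are not reported here.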

Additional observations from a re-analysis of the deposited data

Results flagged for a closer look

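In 3 cases a listed gene went one way between the Day 7 and Day 14 libraries in fibroblast-like cells and the other way in another class, with both counting intervals away from 0. Opposite values whose intervals reach 0, and unnamed clusters, were not taken up, though in the *Tnn*-led cluster *Sfrp1* (-2.34, -3.41 to -1.46) and *Rspo3* (0.84, 0.06 to 1.54) also went the other way, with 82 cells on Day 14. Each class was 1 library per day, so the difference was not tested. *Wnt5a* was higher on Day 14 in fibroblast-like cells (log2 ratio 0.49) and lower in pericyte-like cells (-1.67, from 121 and 57 UMIs) and in epithelial-like cells (-1.53, from 22 and 93 UMIs, with 50 cells on Day 7). The summed fibroblast markers were also lower on Day 14 in both of these classes, at 14228 against 18938 CPM and 18520 against 20263 CPM, and their part in the result was not tested. The fibroblast-like value changed sign in 3 of 16 other ways of forming the class. *Rspo3* was lower on Day 14 in fibroblast-like cells (-0.39) and higher in mesenchymal-like cells (0.84, from 31 and 974 UMIs).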

How the results depend on the processing

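In all, 20 alternatives were run, and each ratio of a listed gene was recomputed under 14 to 16 of them. Of the 20, 4 were chosen after seeing the data (the *Tnn*-led cluster, or it and the low-UMI cluster, counted as fibroblast-like, and the fibroblast-like class without the *Igfbp2*-led or the dividing cluster). The counts past 2-fold for Day 7 over Day 3 held within 1.5 times in all alternatives run, with 2 to 3 listed genes higher (*Wnt2* lost its place in 7 alternatives and *Sfrp4* in 1), and those for Day 14 over Day 7 did not. For Day 14 over Day 7, the 1 listed gene that was lower (*Wnt2*) became 0 with at least 500 genes per cell, with each library clustered alone, with a class per cell, with either way of adding the unnamed clusters and without the *Igfbp2*-led cluster, and became 2 at a fold of 1.5. The 2 that were higher became 1 at resolution 2 and with a class per cell, and 0 without the *Igfbp2*-led cluster and at a mean of at least 10 CPM. The 6 other pathway genes that were higher became 2 without the *Igfbp2*-led cluster and at a mean of at least 10 CPM, where the 2 that were lower became 0, and 6 were lower at a fold of 1.5. *Sfrp1* for Day 7 over Day 3 changed sign in 10 of 16 alternatives, *Wnt5a* in 4 and *Rspo1* in 2. For Day 14 over Day 7, *Wnt5a* in fibroblast-like cells changed sign in 3, the lowest value being -0.09. No listed gene changed sign between mesenchymal-like and fibroblast-like cells in the alternatives run. Thinning to 1000 in place of 2000 UMIs took the mesenchymal-like share with *Lef1* from 54.2% to 33.9%. No paired analysis was possible because each day had 1 library.

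Counts of a few UMIs limit *Rspo1*, *Wif1* and *Lef1* in fibroblast-like cells before Day 14, and 64 cells limit the mesenchymal-like levels of Day 7. Intervals cover counting error only, and differences between mice, wounds and preparations of 1 day cannot be told apart from differences between days.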
